A study of Mus musculus with 18 samples.

Results

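Hoxd4 and Hoxd3 are neighbouring homeobox genes on the 3′ side of the mouse HoxD cluster, and their contacts were followed by 5C, a method that counts ligation junctions between chosen restriction fragments of fixed chromatin. All pairs of 1 forward and 1 reverse primer were taken that lay at least 10 kb apart and had one end on an EcoRI fragment whose midpoint falls in chromosome 2, 74548286 to 74586331 (mm9), the stretch over both genes. The ES cell design holds 504 such pairs out of 4251, made by 8 of its 133 fragments, and the limb design holds 690 out of 10068, made by 7 of its 203 fragments. Of these, 463 and 620 pairs had a mean frequency above 0.02 reads per 1000 and entered tests of single pairs, out of 3484 and 8157 pairs in all.

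The study compared the conformation of HoxD between states in which Hoxd genes are silent or active, with and without Polycomb proteins. D3 cells (2 libraries) were OS25 ES cells differentiated for 3 days, the last 2 days with 5 µM retinoic acid, and UD cells (2 libraries) were undifferentiated OS25 ES cells. The UD libraries' labels repeat the differentiation protocol, so their group rests on the titles. Eed-/- ES cells (2 libraries) lack a subunit of the Polycomb complex PRC2. The study used more than one Eed-/- clone and the labels do not say which clone gave which library. The Ring1BGWT (2 libraries) and Ring1BG53 (1 library) cells are Ring1B-/- ES cells that carry wild-type Ring1B or a form with a point mutation that impairs its ligase activity. Ring1B-/- ES cells (3 libraries) lack this ubiquitin ligase of PRC1. WT cells (2 libraries) are the line WTF18, which is not OS25. The paper cites a different source for its Eed mutant lines than for the Ring1B-/- line. It does not name WTF18 as parent of the Eed mutant lines. Genotype and line of origin therefore cannot be told apart in comparisons of Eed-/- cells with WT or Ring1B-/- cells. P2 and A2 cells (2 libraries each) are immortalised mesenchymal lines from the posterior and the anterior distal forelimb bud of E10.5 Immortomouse embryos, 1 line each. The gene deletions cannot be checked in 5C data, and the labels do not say that the replicates came from separate cultures, so the spread between them may be technical.

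Hox genes encode transcription factors that give cells their position along the body axis and the limbs, and they are switched on in the order in which they lie in the cluster. Hoxd4 and Hoxd3 are among the genes on the early 3′ side and respond to retinoic acid, Hoxd13 to Hoxd9 form the later 5′ side, and Mir10b, a microRNA gene, lies within Hoxd4. In ES cells the cluster is covered by Polycomb complexes, which hold it silent. Gene deserts on both sides carry limb enhancers, among them the global control region (GCR) beyond Lnp on the 5′ side.

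The 8 fragments span 74548286 to 74574606. From the 5′ end, mHoxD_82 (74548286 to 74552569) covers an untranslated exon of Hoxd3, mHoxD_83 (74552570 to 74552739) and mHoxD_84 (74552740 to 74554815) lie in a Hoxd3 intron, and mHoxD_85 (74554816 to 74563667) reaches from Hoxd3 into the 5′ exons of Hoxd4. The fragment mHoxD_86 (74563668 to 74564940) carries Mir10b, mHoxD_87 (74564941 to 74565757) and mHoxD_88 (74565758 to 74572992) carry the coding exons of Hoxd4, and mHoxD_89 (74572993 to 74574606) lies in Hoxd3 again. The limb design lacks mHoxD_87. None of these fragments carries annotated coding sequence of Hoxd3. No fragment of either design covers the stretch from 74574606 to 74585661, where mHoxD_92 begins over the 3′ end of Hoxd3. Its midpoint lies past the end of the stretch taken, and it was counted with Hoxd1. On the partner side, no fragment of either design covers Hoxd10, so its contacts were not measured.

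A small number of ligation products carried much of the signal, so the ends of the fragments that made them are shown. The sequences are the last 24 bases of each fragment and the EcoRI site, which is in capitals. They were read from the mm9 genome on the plus strand at chr2:74563641-74563670, chr2:74849790-74849819, chr2:74552543-74552572, chr2:74324055-74324084 and chr2:74524291-74524320. Primer positions of these fragments are not given in the files used here.
mHoxD_85 (Hoxd3 and Hoxd4): gagggcccagaaaggtaaatgctcGAATTC
mHoxD_163 (desert beyond Mtx2): cagaggaagacagctagcttcctaGAATTC
mHoxD_82 (Hoxd3): tctactaatacgtatattttgccaGAATTC
mHoxD_22 (GCR side): aatatttgcagttctcggttggctGAATTC
mHoxD_75 (Hoxd11): ctcagaaagtgattattttgtttaGAATTC

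The highest pair joined mHoxD_85 to mHoxD_163 (74843589 to 74849816), a fragment without a gene 287.5 kb away in the desert beyond Mtx2. It was first among all 4251 pairs in all 14 ES libraries. Its frequency was 77.0 and 29.4 reads per 1000 in D3 cells, against 74.5 and 21.5 in UD cells. In Eed-/- cells it was 26.9 and 23.0, in Ring1BGWT cells 25.5 and 51.3, in the Ring1BG53 library 32.1, in Ring1B-/- cells 10.8, 26.3 and 21.9, and in WT cells 40.4 and 38.5. In D3, UD, Ring1BGWT and Ring1B-/- cells, libraries of one group thus differed by more than 2-fold, while the Eed-/- and WT libraries lay closer together, and D3 and UD values overlapped. The other 64 pairs of mHoxD_163 had a median of 0.118 and a highest value of 0.981, so the pair stood apart from the rest of its own partner. In the limb lines it was lower, at 1.37 and 2.38 in P2 cells and 1.66 and 4.04 in A2 cells, but still first by its mean among 10068 pairs.

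The second pair of the ES libraries joined mHoxD_82 to mHoxD_22 (74317251 to 74324081) on the GCR side, 229.8 kb away. It ran from 2.33 to 33.9 reads per 1000 over the ES libraries. The lowest was a Ring1B-/- library (2.33, 20.0 and 9.82 in this group) and the highest a WT library (9.23 and 33.9), so libraries of one group spread over most of the range. In the limb lines the same pair lay between 0.126 and 0.146. The ends of mHoxD_82 and mHoxD_22 share a run of 6 bases on the same strand, which 18 of 132 other fragment ends match or exceed, and those of mHoxD_85 and mHoxD_163 share 4, which 129 of 132 match or exceed. The first pair alone held 9.42% to 38.0% of the window's signal in an ES library, so shares of signal are given without both pairs, a choice made after the values had been seen. The third place went mostly to contacts inside the cluster: mHoxD_82 with mHoxD_75 over Hoxd11, 30.1 kb away, had 2.71 and 7.27 in UD cells, 7.60 and 6.18 in Ring1BGWT cells and 2.07, 2.10 and 2.55 in Ring1B-/- cells. In D3 and WT cells the third pair reached Evx2 instead (mHoxD_67, 74483052 to 74498311), at 4.60 and 0.892 from mHoxD_83 in D3 cells and at 4.55 and 4.60 from mHoxD_89 in WT cells. In Eed-/- cells it joined mHoxD_88 to a fragment just past Hoxd1 (74604633 to 74605698), at 0.308 and 3.41, and in the Ring1BG53 library mHoxD_88 to mHoxD_75, at 7.36. In the limb lines the other pairs among the 3 highest were those of mHoxD_82 with mHoxD_79, between Hoxd9 and Hoxd8 and 10.1 kb away (1.80 and 3.37 in P2 cells, 1.45 and 1.74 in A2 cells), and with mHoxD_75 (1.85 and 2.32 in P2 cells, 1.45 and 1.67 in A2 cells).

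In UD and WT ES cells, Hoxd4 and Hoxd3 contacted the 5′ Hoxd genes far more often than either flank. Partners were read in windows along the region, each value being the mean over all fragment pairs that join the 2 windows, zeros included. The windows named Evx2 to Hoxd12 and Evx2 to Hoxd8 start at 74498312, past the end of Evx2, and hold no fragment over that gene. The fragment over Evx2, mHoxD_67, was counted in the Lnp to Evx2 window. With Hoxd11 to Hoxd8 the mean was 1.35 and 1.96 reads per 1000 in UD cells and 1.49 and 1.88 in WT cells, with Evx2 to Hoxd12 it was 0.626 and 1.04 in UD cells and 0.637 and 0.830 in WT cells, and inside the window it was 1.11 and 1.06 in UD cells and 1.15 and 1.90 in WT cells. With the stretch from Hoxd1 to Mtx2, at comparable or larger distance, it was only 0.179 and 0.148 in UD cells and 0.168 and 0.166 in WT cells. A cluster over flank ratio was formed within each library as the log2 ratio of the window's contacts with Evx2 to Hoxd8 to contacts inside either flank at the same distance, over 10 to 110 kb. It was 2.19 and 3.27 in UD cells and 2.73 and 3.09 in WT cells, and group means of 2.73 (SE 0.31) and 2.91 (SE 0.31) differed from 0 (limma adjusted p = 8.90e-05 and 5.33e-05). With fragments scaled to equal mean signal, an alternative chosen after the values were seen that also takes away signal shared by neighbouring fragments, the ratio was 0.54 in UD cells and 0.99 in WT cells and no longer past the threshold.

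Contacts with the 3′ flank, past Hoxd1, and the 5′ flank, from the fragment over Evx2 (mHoxD_67) to the GCR side, were compared at matched distance. The 3′ over 5′ ratio, a log2 ratio over partners 80 to 280 kb away, was 0.01 and -0.18 in UD cells and 0.15 and -0.25 in WT cells. Neither group mean was past the threshold against 0 (-0.09, 95% interval -0.85 to 0.68, and -0.05, -0.81 to 0.71). These ratios average distance classes of opposite sign. At 180 to 230 kb, where the 5′ side holds the pair of mHoxD_82 with mHoxD_22, they were -1.12 and -0.675 (UD) and -1.36 and -2.15 (WT). At 230 to 280 kb they were 1.25 and 0.958 (UD) and 1.74 and 1.33 (WT). Over alternatives the group means ran from -0.21 to 0.73 in UD cells and from -0.85 to 0.91 in WT cells. UD and WT cells differed in 0 of 10 partner windows by limma (0% of all 53 window pairs were higher and 0% lower), with 0 of 10 and 2 of 53 at an unadjusted p under 0.05, and a cluster ratio difference of -0.18 (95% interval -1.18 to 0.82). Of 40 tested single pairs with Evx2 to Hoxd8, 4 were higher in both UD libraries (14.6% of all 3484 pairs were) and 7 lower (9.07% of all). No single pair was called by limma (0% of 3484 in either direction), and 31 of 463 had an unadjusted p under 0.05 (6.7%, against 5.83% of all).

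**Figure D1:**
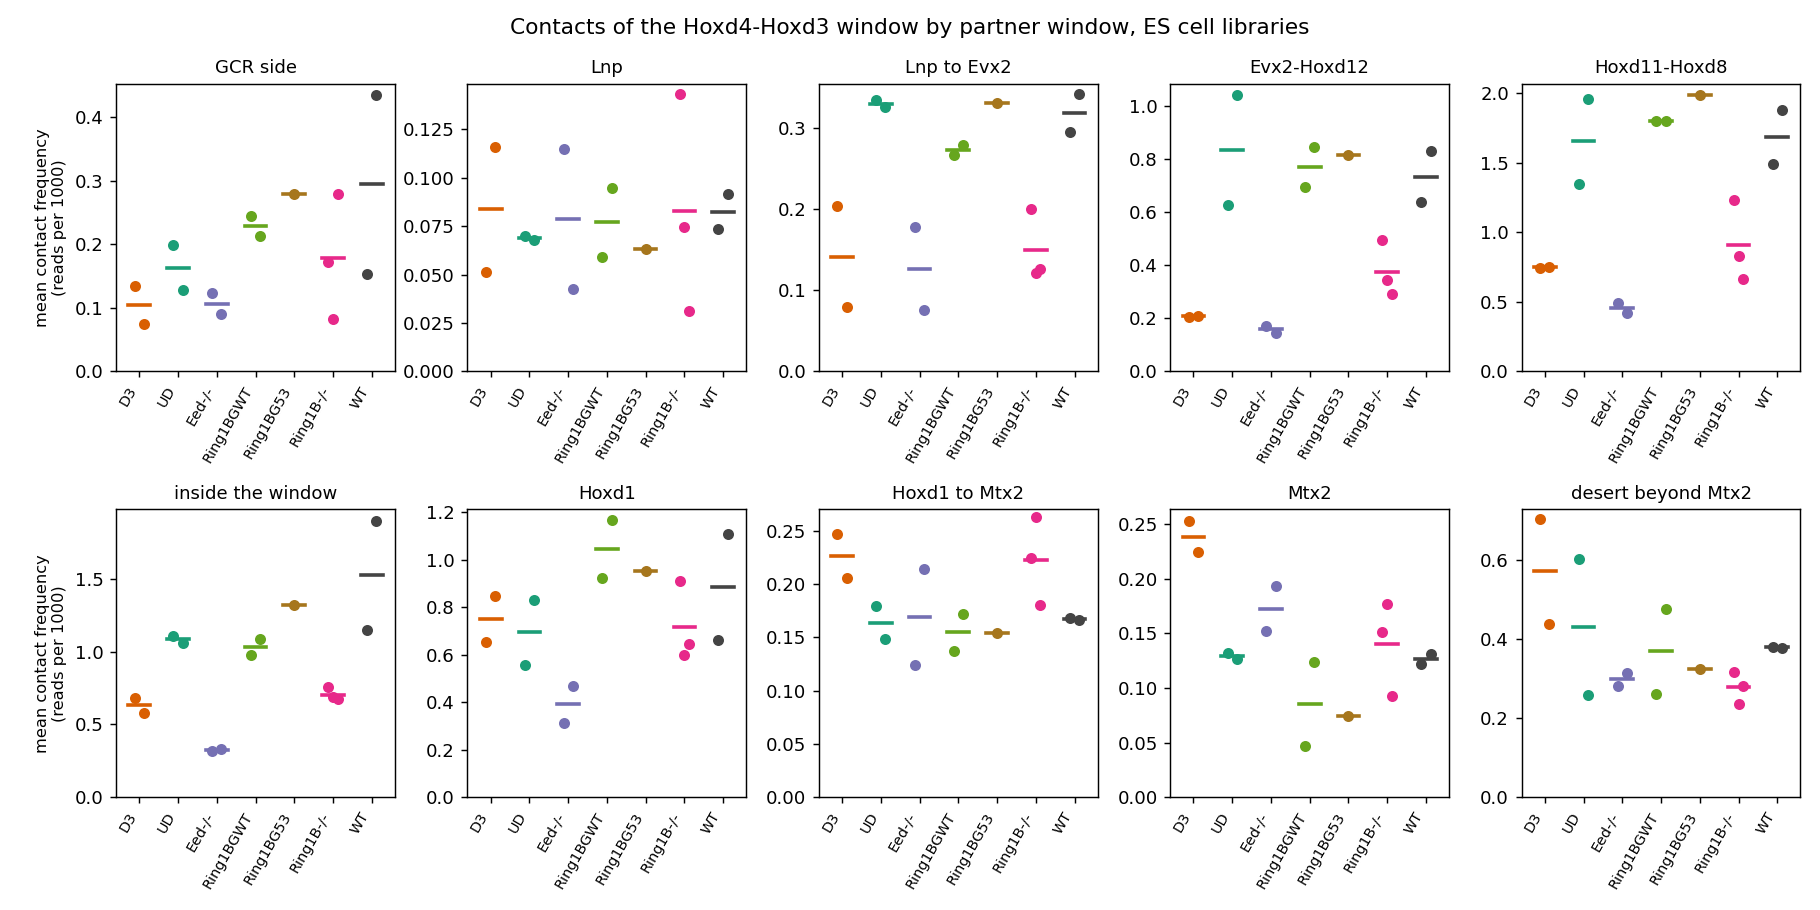
Mean contact frequency of the Hoxd4-Hoxd3 window with each partner window (y axis, reads per 1000, each panel with its own linear scale from 0) in the 14 ES libraries. Points are libraries and bars group means, and in the Evx2-Hoxd12 panel both D3 points (0.205 and 0.210) lie below both UD points (0.626 and 1.04), as both Eed-/- points (0.172 and 0.146) lie below both WT points (0.637 and 0.830).

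On differentiation, contacts of Hoxd4 and Hoxd3 with the 5′ Hoxd genes fell and the balance of flank contacts turned to the 3′ side. The Evx2 to Hoxd12 window covers Hoxd13 and Hoxd12 but not Evx2 itself. With it the mean was 0.205 and 0.210 reads per 1000 in D3 cells, against 0.626 and 1.04 in UD cells. The groups did not overlap, and the difference was -1.86 on the log2 scale after adding 0.02 (SE 0.31, 95% interval -2.53 to -1.19, limma adjusted p = 0.0019), or 3.64-fold lower. With Hoxd11 to Hoxd8 it was 0.745 and 0.751 in D3 cells, against 1.35 and 1.96 in UD cells, a difference of -1.10 (SE 0.30, limma adjusted p = 0.0427). These were 2 of 10 partner windows, both lower, where 7.55% of all 53 window pairs were lower and 1.89% higher. The median difference was -0.23 over the 10 windows and -0.04 over all 53.

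Other partners did not pass the threshold. Contacts inside the window were 0.683 and 0.580 in D3 cells, against 1.11 and 1.06 in UD cells, with no overlap (log2 difference -0.76, limma adjusted p = 0.0975). Contacts with the Lnp to Evx2 window, which includes the fragment over Evx2, were 0.204 and 0.0794 in D3 cells, against 0.335 and 0.326 in UD cells (-1.23, limma adjusted p = 0.0722). Both D3 libraries were lower in these windows. Contacts with the window of Mtx2, a housekeeping gene on the 3′ side, were 0.253 and 0.224 in D3 cells, against 0.132 and 0.126 in UD cells (0.79, limma adjusted p = 0.202), and those with Hoxd1 were 0.652 and 0.849 in D3 cells, against 0.558 and 0.831 in UD cells. For Hoxd1 the groups overlapped, with an interval of the log2 difference from -0.60 to 0.85. Contacts with the stretch from Hoxd1 to Mtx2 were 0.247 and 0.206 in D3 cells, against 0.179 and 0.148 in UD cells, with no overlap (0.43, 95% interval -0.19 to 1.04). The calls rest on few libraries: without UD replicate 2 the difference with Evx2 to Hoxd12 was -1.51 (limma adjusted p = 0.0586) and none of the 10 windows was past the threshold, and that with Hoxd11 to Hoxd8 was lost under 10 of 25 alternatives.

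From Evx2 to Hoxd8 both D3 libraries were lower at every partner fragment, and at the 3 fragments of the Hoxd1 window the groups overlapped. The fragment over Hoxd11, mHoxD_75, the highest partner in the cluster, had 1.34 and 1.68 in D3 cells, against 2.66 and 4.77 in UD cells. That over Hoxd13, mHoxD_70, had 0.573 and 0.576 in D3 cells, against 1.27 and 2.75 in UD cells, and that over Hoxd9, mHoxD_78, had 0.109 and 0.106 in D3 cells, against 0.489 and 0.518 in UD cells. In all 11 partner fragments from Evx2 to Hoxd8 both D3 libraries lay below both UD libraries, where 16% of all 1128 means of a fragment with a window did so. At the fragment over Evx2 itself, mHoxD_67, the means were 1.46 and 0.518 in D3 cells, against 2.65 and 2.62 in UD cells. Of the 40 single pairs with Evx2 to Hoxd8 that passed the filter, 30 were lower in both D3 libraries (75%, against 10.9% of all 3484 pairs). On the window's own side, all 8 fragments had a lower group mean with Evx2 to Hoxd8 in D3 cells, at 0.166 to 0.578 of that in UD cells. The fragments that contacted the 5′ genes most were mHoxD_82 (0.950 in D3 cells, against 2.40 in UD cells), mHoxD_88 (0.599 against 2.01) and mHoxD_84 (0.799 against 1.66), while mHoxD_87 had the fewest contacts (0.0280 against 0.0560, one UD library having none).

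**Figure D2:**
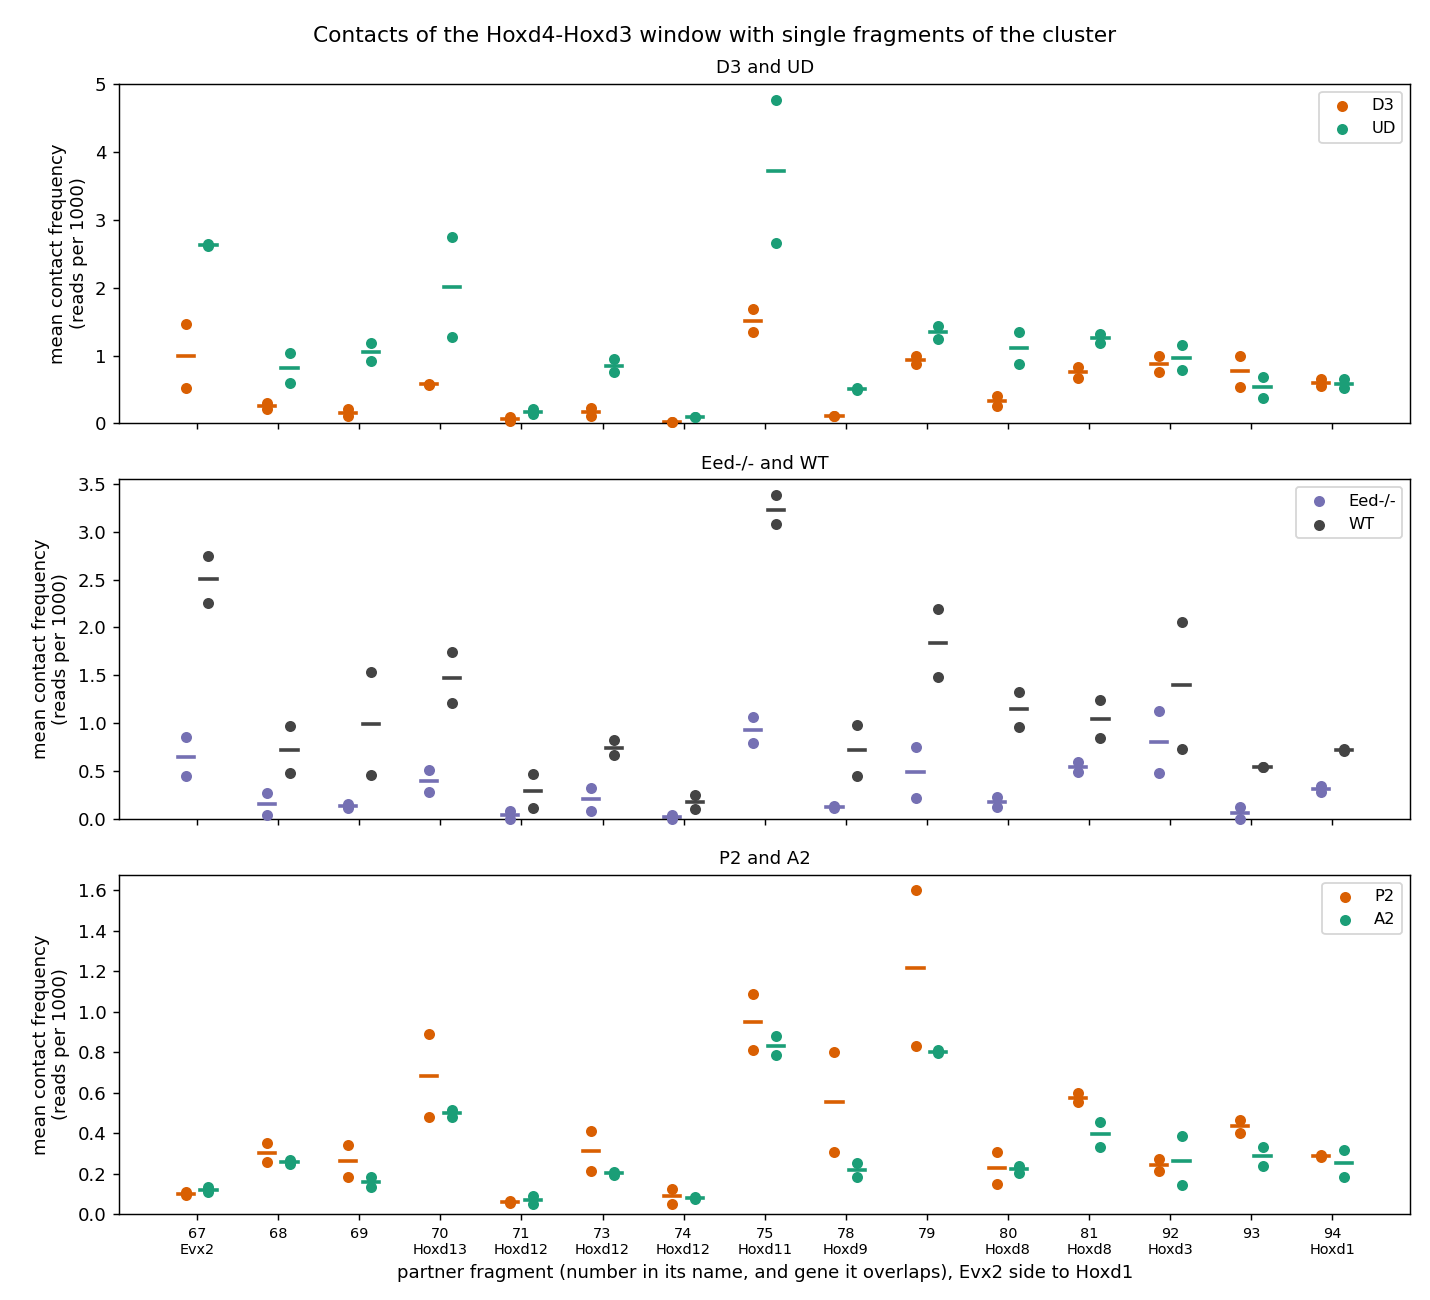
Mean contact frequency of the Hoxd4-Hoxd3 window with single EcoRI fragments from Evx2 to Hoxd1 (y axis, reads per 1000, linear from 0), with partner fragments in genomic order on the x axis. Points are libraries and bars group means. Over the 11 fragments from mHoxD_68 to mHoxD_81, all D3 points lie below all UD points and all Eed-/- points below all WT points, and at mHoxD_75 the means are 1.34 and 1.68 in D3 libraries and 2.66 and 4.77 in UD libraries.

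The cluster over flank ratio was 0.61 and 0.67 in D3 cells, against 2.19 and 3.27 in UD cells (difference -2.09, SE 0.44, limma adjusted p = 0.0075). The 3′ over 5′ ratio was 1.79 and 1.86 in D3 cells, against 0.01 and -0.18 in UD cells (1.91, SE 0.47, limma adjusted p = 0.0075). Neither ratio overlapped between the groups, and neither depends on the scaling of a library. D3 cells thus contacted the 3′ flank 3.54-fold more than the 5′ flank at matched distance (log2 ratio 1.82, limma adjusted p = 8.74e-04 against 0). Without the 2 highest pairs, the 3′ flank took 61.9% ± 0.511 of the window's signal in D3 cells and 33.7% ± 7.73 in UD cells (SD, n = 2), and Evx2 to Hoxd8 took 15.3% ± 0.739 in D3 cells and 36.6% ± 8.26 in UD cells. Of 268 tested pairs with the 3′ flank, 85 were higher in both D3 libraries (31.7%, against 16.7% of all pairs), as were 40 of 70 partner fragments there (21.6% of all 1128 means), and all 8 fragments of the window had a higher group mean there, at 1.13 to 2.12 times that in UD cells. Both ratio differences missed the threshold without UD replicate 2 (-1.55 for the cluster, 1.82 for the flanks) and without D3 replicate 1 (-2.06 and 1.94), with an adjusted p of 0.0648 at most. The flank difference also missed it without the highest pair (1.44). Its 5′ side includes pairs with the fragment over Evx2 and the pair of mHoxD_82 with mHoxD_22. No single pair was called by limma, of the window or in all (0% of 3484 in either direction), and 23 of 463 had an unadjusted p under 0.05 (4.97%, against 3.85% of all), with a median SE of 1.45 on the log2 scale.

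**Figure D3:**
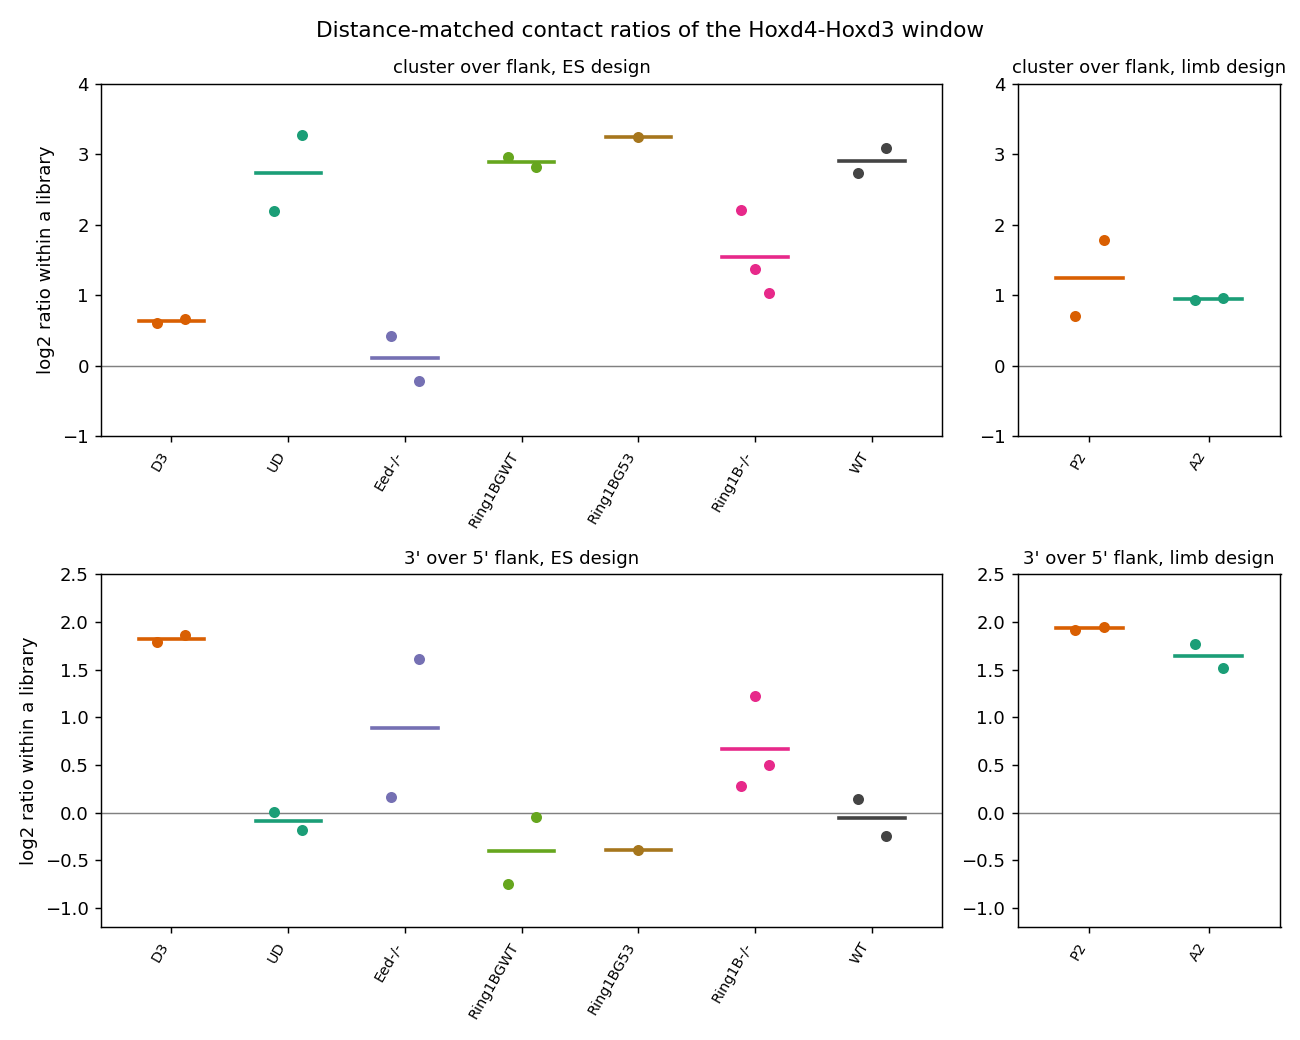
The cluster over flank ratio (top) and the 3′ over 5′ flank ratio (bottom) of the Hoxd4-Hoxd3 window, as log2 ratios within a library (y axis, 0 meaning equal contact), for the ES (left) and limb (right) groups. Points are libraries and bars group means. D3 (0.61 and 0.67) and Eed-/- (0.42 and -0.21) libraries lie lowest in the top panel, and D3 (1.79 and 1.86) and P2 (1.92 and 1.95) libraries highest in the bottom panel.

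In Eed-/- cells, contacts inside the Hoxd4-Hoxd3 window and of the window with the other Hoxd genes on both sides were lower. Inside the window, the mean frequency was 0.319 and 0.330 reads per 1000 in Eed-/- cells, against 1.15 and 1.90 in WT cells (log2 difference -2.12, SE 0.27, 95% interval -2.70 to -1.55, limma adjusted p = 8.94e-05). With Evx2 to Hoxd12 it was 0.172 and 0.146 in Eed-/- cells, against 0.637 and 0.830 in WT cells (-2.07, SE 0.31, limma adjusted p = 3.23e-04). With Hoxd11 to Hoxd8 it was 0.493 and 0.419 in Eed-/- cells, against 1.49 and 1.88 in WT cells (-1.84, SE 0.30, limma adjusted p = 5.95e-04). In each of these windows both Eed-/- libraries lay below both WT libraries, and the means were 4.35-fold, 4.19-fold and 3.57-fold lower.

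Contacts with Hoxd1 were also lower (0.314 and 0.470 in Eed-/- cells, against 0.663 and 1.11 in WT cells, -1.12, limma adjusted p = 0.0348). Those with the Lnp to Evx2 window, which includes the fragment over Evx2, were lower too (0.178 and 0.0759 in Eed-/- cells, against 0.296 and 0.342 in WT cells, -1.30, limma adjusted p = 0.0348). That made 5 of 10 partner windows lower and 0 higher, where 17% of all 53 window pairs were lower and 0% higher, with median differences of -1.14 over the 10 and -0.11 over all. The 3′ partners past Hoxd1 were not called: contacts with the stretch from Hoxd1 to Mtx2 were 0.124 and 0.214 in Eed-/- cells, against 0.168 and 0.166 in WT cells, with an interval of the difference from -0.64 to 0.60. The calls for both 5′ Hoxd windows held under all 25 alternatives and that inside the window under 23 of 24, whereas those for Hoxd1 and for Lnp to Evx2 were lost under 10 and 11 of 25.

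The fragment over Hoxd11 had 0.788 and 1.06 in Eed-/- cells, against 3.08 and 3.38 in WT cells, and that over Hoxd13 had 0.285 and 0.509 in Eed-/- cells, against 1.21 and 1.74 in WT cells. In all 11 partner fragments from Evx2 to Hoxd8 both Eed-/- libraries lay below both WT libraries (21.5% of all 1128 means did so), and the same held for mHoxD_67 over Evx2 (0.853 and 0.445 in Eed-/- cells, against 2.26 and 2.75 in WT cells). Of the single pairs, 30 of 40 with Evx2 to Hoxd8 (75%), 6 of 7 inside the window and 7 of 12 with Hoxd1 were lower in both Eed-/- libraries, against 12.3% of all 3484 pairs. All 8 fragments of the window had a lower mean with Evx2 to Hoxd8, at 0.0531 to 0.310 of that in WT cells. The lowest ratio was that of mHoxD_87, which had no reads with these partners in one Eed-/- library. Pairs with the 3′ flank were split, 37 of 268 being higher in both Eed-/- libraries (10.4% of all pairs were) and 36 lower. The ratio of cluster to flank contacts was 0.42 and -0.21 in Eed-/- cells, against 2.73 and 3.09 in WT cells (-2.81, SE 0.44, limma adjusted p = 0.0010), and its mean in Eed-/- cells was 0.11 (95% interval -0.60 to 0.81), an interval that holds equal contact with the 5′ genes and within the flanks, and it turned to -1.90 with fragments scaled to equal mean signal.

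The 3′ over 5′ ratio was 0.17 and 1.61 in Eed-/- cells, against 0.15 and -0.25 in WT cells. The Eed-/- libraries differed widely, and the difference of 0.94 did not pass the threshold (95% interval -0.14 to 2.02, limma adjusted p = 0.141). Without Eed-/- replicate 1 it was 1.66 and past the threshold. Without the 2 highest pairs, the 3′ flank took 59.8% ± 10.7 of the window's signal in Eed-/- cells and 32.9% ± 3.61 in WT cells (SD, n = 2). No single pair was called by limma (0% of 3484 in either direction), with 67 of 463 at an unadjusted p under 0.05 (14.5%, against 9.41% of all), 47 of them lower. Eed-/- libraries had reads in fewer of the window's pairs than any other ES library, with 52.8% and 54.0% of the 504 pairs at 0, against 48.2% and 46.0% in WT libraries, at totals of 1086406 and 906901 reads in Eed-/- libraries and 653441 and 692267 in WT libraries. The part of this in the differences was not tested.

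In Ring1B-/- cells, contacts inside the window and with the 5′ Hoxd genes lay between those of Eed-/- and WT cells. Inside the window the mean was 0.689, 0.673 and 0.755 in Ring1B-/- cells, against 1.15 and 1.90 in WT cells, and the difference of -1.05 was past the threshold (SE 0.24, 95% interval -1.57 to -0.52, limma adjusted p = 0.0408). With Evx2 to Hoxd12 it was 0.346, 0.290 and 0.494 in Ring1B-/- cells, against 0.637 and 0.830 in WT cells (-0.95, limma adjusted p = 0.1), and with Hoxd11 to Hoxd8 0.830, 0.668 and 1.23 in Ring1B-/- cells, against 1.49 and 1.88 in WT cells (-0.91, limma adjusted p = 0.1). In each of these windows all 3 Ring1B-/- libraries lay below both WT libraries. One of 10 partner windows was called lower, where 1.89% of all 53 were lower and 0% higher. The call inside the window was lost under 15 of 25 alternatives, without Ring1B-/- replicate 1, Ring1B-/- replicate 2 or WT replicate 2 among them (-1.41 to -0.69 when single libraries were left out, limma adjusted p up to 0.618).

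Ring1B-/- replicate 3 had the highest 5′ contacts of the group. As a ratio to flank contacts they were 1.37, 1.03 and 2.21 in Ring1B-/- cells, against 2.73 and 3.09 in WT cells, with no overlap (-1.38, SE 0.40, limma adjusted p = 0.0550), and without replicate 3 the difference was -1.71 and past the threshold. The ratio in Ring1B-/- cells differed from 0 (1.53, limma adjusted p = 5.11e-04), but turned to -0.57 with fragments scaled to equal mean signal. The 3′ over 5′ ratio was 1.22, 0.50 and 0.28 in Ring1B-/- cells, against 0.15 and -0.25 in WT cells, again with no overlap, but its difference of 0.72 missed the threshold (95% interval -0.27 to 1.70, limma adjusted p = 0.234). Of the 40 single pairs with Evx2 to Hoxd8, 13 were lower in all Ring1B-/- libraries (32.5%, against 6.54% of all pairs), and 4 of 11 partner fragments (7.89% of all 1128 means). No single pair was called by limma (0% of 3484 in either direction), and 36 of 463 had an unadjusted p under 0.05 (7.78%, against 7% of all). All 8 fragments of the window had a lower group mean with Evx2 to Hoxd8, at 0.389 to 0.653 of that in WT cells.

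Eed-/- and Ring1B-/- cells, which were set against the same WT libraries, were also compared directly. Inside the window Eed-/- cells were lower by 1.07 on the log2 scale (0.319 and 0.330 in Eed-/- cells, against 0.689, 0.673 and 0.755 in Ring1B-/- cells, difference -1.07, SE 0.24, limma adjusted p = 0.0333), and with Evx2 to Hoxd12 the difference was -1.12 (limma adjusted p = 0.04). These 2 of 10 windows were lower, where 3.77% of all 53 were lower and 0% higher. Their cluster over flank ratios did not overlap and differed by -1.43 (SE 0.40, limma adjusted p = 0.0228), which missed the threshold without Eed-/- replicate 2 (-1.11) or Ring1B-/- replicate 3 (-1.09). Contacts past Hoxd1 were not called, with an interval of the difference of -0.95 to 0.18 for the stretch from Hoxd1 to Mtx2. Of single pairs with Evx2 to Hoxd8, 15 of 40 were lower in both Eed-/- libraries (37.5%, against 11.9% of all pairs) and 0 were higher (5.91% of all). Among single pairs limma called none (0% of 3484 in either direction), and 47 of 463 had an unadjusted p under 0.05 (10.2%, against 7.75% of all). The window calls were lost under 13 of 25 and 16 of 26 alternatives, and leaving out either Eed-/- library, Ring1B-/- replicate 1 or Ring1B-/- replicate 3 left 0 windows past the threshold, with adjusted p up to 0.176.

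Cells in which wild-type or mutant Ring1B had been put back had more contacts of Hoxd4 and Hoxd3 with the 5′ genes than Ring1B-/- cells in every library. For Ring1BGWT the difference passed the threshold as a ratio to flank contacts but not as a level, and the 1 Ring1BG53 library gives values with no replicate check. With Evx2 to Hoxd12 the mean was 0.697 and 0.846 in Ring1BGWT cells and 0.815 in the Ring1BG53 library, against 0.346, 0.290 and 0.494 in Ring1B-/- cells. With Hoxd11 to Hoxd8 it was 1.80 and 1.80 in Ring1BGWT cells and 1.99 in the Ring1BG53 library, against 0.830, 0.668 and 1.23 in Ring1B-/- cells. Every library with Ring1B lay above every Ring1B-/- library. The log2 differences were 1.02 (SE 0.28) and 1.01 (SE 0.28) for Ring1BGWT, with a limma adjusted p of 0.0725 for both, and 1.11 (SE 0.36, limma adjusted p = 0.147) and 1.16 (SE 0.35, limma adjusted p = 0.145) for Ring1BG53, which has 1 library and takes its spread from the other groups.

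So 0 of 10 partner windows was called by limma in either comparison, where 0% of all 53 window pairs were called in each direction, with 4 of 10 at an unadjusted p under 0.05 for Ring1BGWT (9 of 53 in all) and 4 of 10 for Ring1BG53 (8 of 53). Without Ring1B-/- replicate 3, whose values are nearest to those of the cells with Ring1B, 2 windows were past the threshold in each comparison. Set against flank contacts, the cluster ratio was 2.96 and 2.82 in Ring1BGWT cells and 3.25 in the Ring1BG53 library, against 1.37, 1.03 and 2.21 in Ring1B-/- cells. For Ring1BGWT the difference of 1.35 (SE 0.40, limma adjusted p = 0.0305) was past the threshold, and it missed it under 8 of 20 alternatives, among them leaving out Ring1B-/- replicate 1 (1.27), Ring1B-/- replicate 2 (1.10) or either Ring1BGWT library (1.28 and 1.42). The Ring1BG53 library differed from the mean of Ring1B-/- cells by 1.72, and its limma adjusted p of 0.0300 assumes that this library varies like those of the other groups, so no call is drawn from it for the mutant. The 3′ over 5′ ratio was -0.75 and -0.05 in Ring1BGWT cells and -0.39 in the Ring1BG53 library, below all Ring1B-/- libraries, with differences of -1.06 (limma adjusted p = 0.0654) and -1.06 (limma adjusted p = 0.133). The fragment over Hoxd11 had 4.18 and 4.29 in Ring1BGWT cells and 4.20 in the Ring1BG53 library, against 1.23, 1.10 and 2.22 in Ring1B-/- cells, whereas that over Hoxd9 had 0.442 and 0.416 in Ring1BGWT cells and 0.520 in the Ring1BG53 library, against 0.601, 0.440 and 0.484 in Ring1B-/- cells, with overlap. Of 11 partner fragments from Evx2 to Hoxd8, 6 were higher in both Ring1BGWT libraries (11.8% of all 1128 means) and 6 in the Ring1BG53 library (16.8%), above all Ring1B-/- libraries. Of 40 single pairs with Evx2 to Hoxd8, 15 were higher in both Ring1BGWT libraries (37.5%, against 8.18% of all pairs) and 5 lower (9.5% of all), and 21 were higher in the Ring1BG53 library (52.5%, against 16.6%). For Ring1BGWT no single pair was called by limma (0% of 3484 in either direction), and 29 of 463 had an unadjusted p under 0.05 (6.26%, against 6.8% of all). Ring1BGWT and Ring1BG53 cells were not tested against each other.

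The outer windows, Lnp, the GCR side and the desert beyond Mtx2, were called in none of the ES comparisons. On the GCR side, which holds the second-highest pair, the mean was 0.134 and 0.0753 reads per 1000 in D3 cells, against 0.199 and 0.128 in UD cells (log2 difference -0.57, 95% interval -1.63 to 0.48). In Eed-/- cells it was 0.123 and 0.0907, against 0.154 and 0.435 in WT cells (-1.16, 95% interval -2.21 to -0.11, limma adjusted p = 0.147). The D3 and UD values overlapped and the Eed-/- and WT values did not, and WT replicate 2 was the highest of all 14 libraries. The second-highest pair had 33.9 reads per 1000 in that library, against 9.23 in WT replicate 1. Over alternatives the difference of -1.16 ran from -1.85 to -0.23.

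In the desert beyond Mtx2, which holds the highest pair, the mean was 0.706 and 0.439 in D3 cells, against 0.604 and 0.260 in UD cells (0.46, 95% interval -0.35 to 1.28). In Eed-/- cells it was 0.281 and 0.316, against 0.381 and 0.379 in WT cells (-0.33, 95% interval -1.15 to 0.49). These means include that pair. Without the 2 highest pairs, the mean with the whole 3′ flank was 0.251 to 0.262 in D3 cells, against 0.139 to 0.173 in UD cells. In Eed-/- cells it was then 0.132 to 0.193, against 0.151 to 0.158 in WT cells, which overlapped. The flank means without these pairs were not tested. Contacts with Lnp were 0.0516 and 0.116 in D3 cells, against 0.0699 and 0.0678 in UD cells, and 0.115 and 0.0425 in Eed-/- cells, against 0.0735 and 0.0915 in WT cells, overlapping in both comparisons. Ring1B-/- cells ran from 0.0833 to 0.279 on the GCR side, from 0.0311 to 0.143 with Lnp and from 0.235 to 0.317 in the desert, and their differences from WT cells of -0.64, -0.14 and -0.43 had a limma adjusted p of 0.589 or above.

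**Figure D4:**
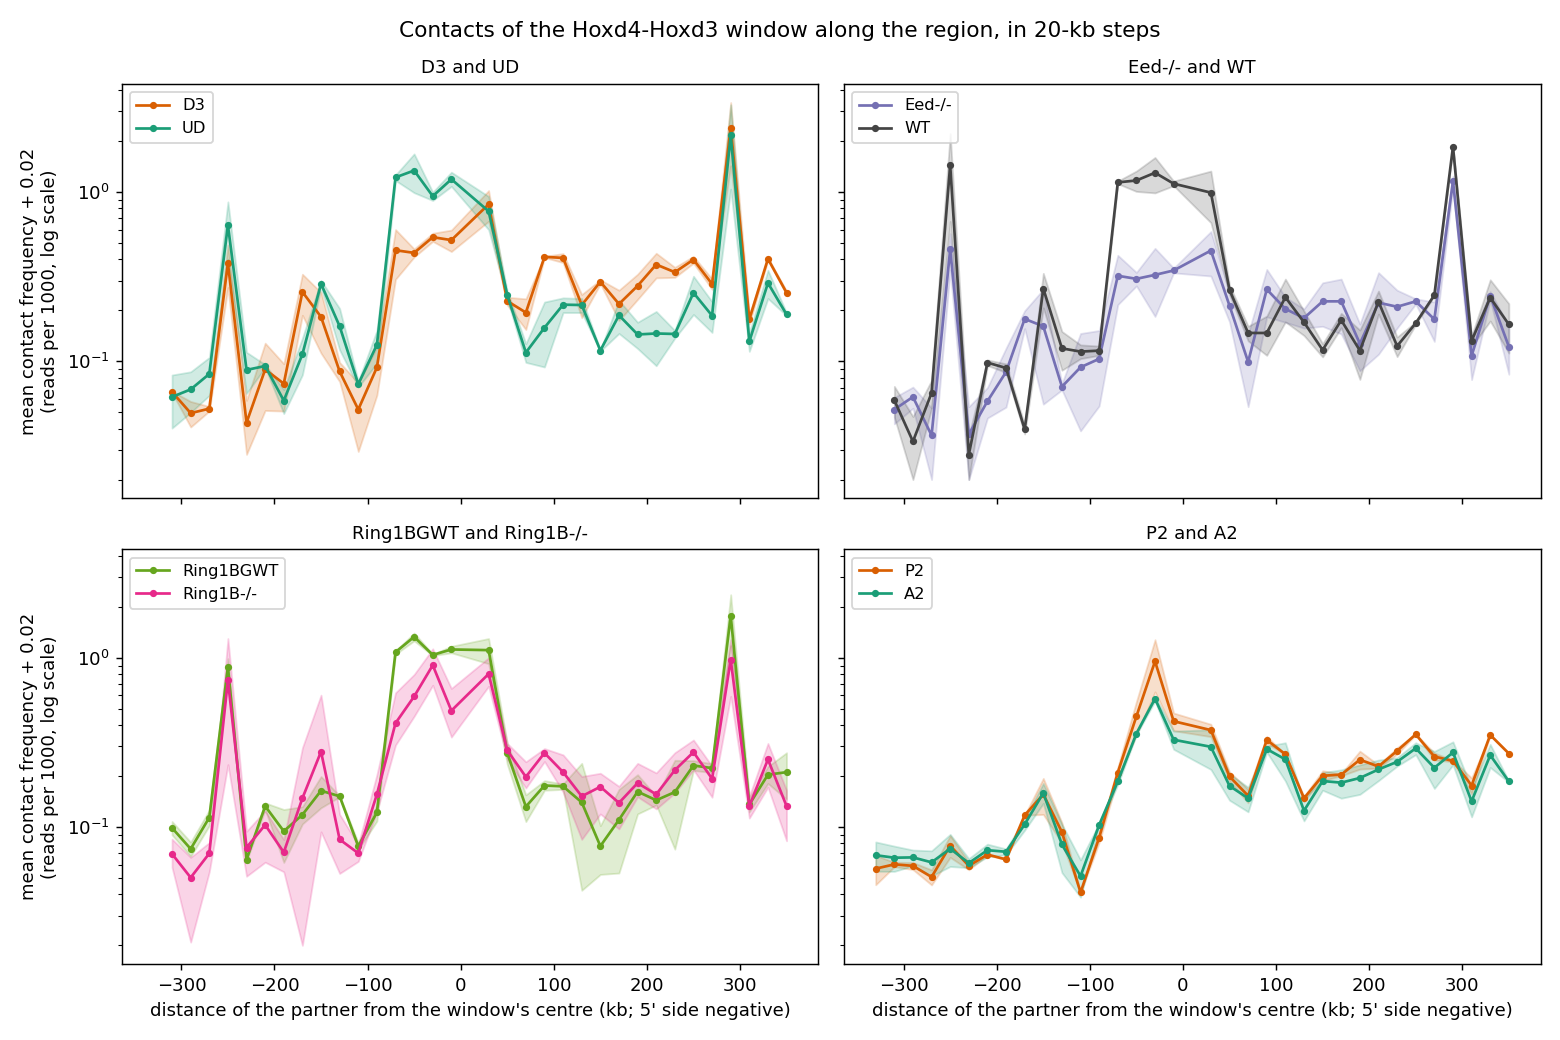
Mean contact frequency of the Hoxd4-Hoxd3 window in steps of 20 kb along the region (x axis, kb from the window's centre, 5′ side negative), on a log scale after adding 0.02 (y axis, reads per 1000). Lines are group means and bands the range over libraries. Between -70 and -10 kb D3 libraries run below UD libraries (0.393 to 0.441, against 0.971 to 1.66, at -50 kb), at 90 kb D3 libraries run above UD libraries, and peaks near -250 and 290 kb in ES libraries are the 2 highest pairs.

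No partner of Hoxd4 and Hoxd3 passed the threshold between the limb lines. With Hoxd11 to Hoxd8 the mean was 0.594 and 0.998 reads per 1000 in P2 cells, against 0.570 and 0.556 in A2 cells (log2 difference 0.44, SE 0.22, 95% interval 0.01 to 0.87, limma adjusted p = 0.949). With Evx2 to Hoxd12 it was 0.224 and 0.391 in P2 cells, against 0.229 and 0.226 in A2 cells, which overlapped. P2 replicate 2 held the high value in both windows. None of 11 partner windows was called by limma, where 0% of all 64 were called in each direction, and 1 of 11 and 3 of 64 had an unadjusted p under 0.05.

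Single fragments of the cluster were read in the same way. The fragment over Hoxd9, mHoxD_78, had 0.310 and 0.801 in P2 cells, against 0.255 and 0.186 in A2 cells, and mHoxD_81 over Hoxd8 had 0.553 and 0.598 in P2 cells, against 0.458 and 0.332 in A2 cells. These did not overlap, as in 4 of 11 partner fragments from Evx2 to Hoxd8 (14.7% of all 1928 means of a fragment with a window). Of 36 tested single pairs with Evx2 to Hoxd8, 11 were higher in both P2 libraries (30.6%, against 15.2% of all 8157 pairs), and of 241 with the 3′ flank, 65 (27%). At the level of pairs limma called none (0% of 8157 in either direction), and 13 of 620 had an unadjusted p under 0.05 (2.1%, against 3.25% of all).

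Both lines contacted the 3′ flank more than the 5′ flank. The 3′ over 5′ ratio was 1.92 and 1.95 in P2 cells and 1.77 and 1.52 in A2 cells, and both group means differed from 0 (1.94, limma adjusted p = 4.25e-09, and 1.65, limma adjusted p = 3.41e-08). The SE of 0.17 behind both p-values comes from a single spread pooled over all 10 limb ratios, not from the 2 libraries of each line alone. These ratios come from the same libraries and are not independent. The p-values therefore rest on fewer independent values than the 20 degrees of freedom used. The difference of 0.29 between the lines did not pass the threshold (95% interval -0.22 to 0.80, limma adjusted p = 0.418). The cluster over flank ratio was 0.70 and 1.79 in P2 cells and 0.93 and 0.96 in A2 cells, so the P2 libraries lay on both sides of A2 (0.30, 95% interval -0.21 to 0.81, limma adjusted p = 0.418). Leaving out P2 replicate 1 gave 0.84, past the threshold, and leaving out P2 replicate 2 gave -0.24. Contacts with the desert beyond Mtx2 were 0.248 and 0.232 in P2 cells, against 0.224 and 0.185 in A2 cells, with no overlap (0.22, 95% interval -0.21 to 0.65), and those with Lnp and the GCR side differed by -0.04 and -0.08. The far 5′ desert, covered only in the limb design, was contacted least, at 0.0373 and 0.0418 in P2 cells and 0.0433 and 0.0358 in A2 cells. The limb design has other fragments and totals, and its values were not tested against those of ES libraries.

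Over the 14 ES libraries, the windows whose mean contact frequency followed that of the Hoxd4-Hoxd3 window most closely, counting only partners in neither window, were Hoxd1 (Pearson r = 0.65), Lnp to Evx2 (0.48) and Evx2 to Hoxd12 (0.47). These are descriptions over libraries that share depth and groups.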

How the data were processed

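The deposited matrices, 1 per library, hold signal values. For each pair, the authors gave reads per 1000 reads of the run, after handling Ion Torrent reads of 5C products in a Galaxy pipeline. The aligner was not given in the sources used here. Totals recovered from the smallest step of each matrix were 216419 to 1708047 reads in ES libraries and 478818 to 2096681 in limb libraries, where 3 reads correspond to at most 0.0139 reads per 1000. These limits cover counting error only. Of the window's pairs, 16.3% to 54.0% held no read in ES libraries and 1.16% to 13.3% in limb libraries. Replicates correlated at a Pearson r of 0.43 to 0.63 (ES) and 0.74 to 0.84 (limb) over the window's pairs on the log2 scale. None was a copy of another (chi-square per degree of freedom 20.2 to 189).

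Primer classes were read from which pairs hold contacts. Fragments were assigned to windows by midpoint, with bounds from the mm9 annotation. Means over fragment pairs, ratios within libraries and single pairs with a mean above 0.02 were computed with Python 3.11.15, numpy 2.4.6 and pandas 2.3.3, and tested two-sided on log2 values (window means and pairs after adding 0.02) with limma 3.58.1 in R 4.3.3, using the spread over all libraries of a design (in the limb design one spread for all window pairs, SE 0.22). The limb ratios likewise shared a single spread, with an SE of 0.17 for group means. Benjamini-Hochberg adjustment was made within each comparison over all 53 (ES) or 64 (limb) window pairs, all tested pairs, or 7 or 10 ratios, at 0.05. Window means that share fragment pairs of the same libraries are not independent, and no exact permutation test with 2 or 3 libraries per group can reach 0.05. The procedure was tested on simulated data. Genome sequence was read with samtools 1.23.1. Figures were made in matplotlib 3.10.9.

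Named were the partner windows (values of the outer windows are given for the main comparisons), each fragment of the window, the 3 highest pairs per group and the 3 windows most alike. Pairs past the threshold were to be named per comparison, and there were none. Single partner fragments of the cluster were chosen after their values were seen. The members and lists were chosen with earlier results of these data known. Alternatives covered library scaling, pseudocount, distance, filter, fragments, extreme pairs, the libraries in the fit, adjustment and fragment scaling. Data from FISH, ChIP and Hi-C were not used here.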

Additional observations from a re-analysis of the deposited data

How the results depend on the processing

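The decrease of contacts with Evx2 to Hoxd12 and Hoxd11 to Hoxd8 in Eed-/- cells and of the cluster over flank ratio in Eed-/- cells kept direction and threshold under every alternative run. Against 0, the 3′ over 5′ ratio also did so in D3 cells (19 of 19 alternatives) and in A2 and P2 cells (18 of 18 each). Other calls depended on settings, and the cause was not tested. Counts of windows called under alternatives are out of the 10 partner windows, and shares over all 53 window pairs were not taken there. On the D3 and UD comparison, the 3′ over 5′ ratio of 1.91 missed the threshold without the highest pair (1.44) and in 1 distance class (1.73), and without single libraries it ran from 1.82 to 2.00, the cluster ratio from -2.63 to -1.55. The 2 windows called became 1 with a pseudocount of 0.005, without the highest pair, with fragments by overlap, without mHoxD_88, without mHoxD_89, with adjustment over all comparisons and with fragments scaled to equal means (the last chosen after the values were seen), 4 without mHoxD_83, and 0 to 2 without single libraries. For Eed-/- against WT, the 5 windows became 3 with libraries scaled to the same sum, at 20 kb, without the highest pair, without mHoxD_89, with adjustment over all comparisons and with fragments scaled, and 3 to 5 without single libraries, and the 3′ over 5′ ratio ran from 0.22 to 1.66.

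For Ring1B-/- against WT, the cluster ratio passed the threshold at 20 kb (-1.32), as a mean of log2 values (-1.57), without mHoxD_84 (-1.38), with adjustment over all comparisons (-1.38) and with fragments scaled (-1.56), and ran from -1.71 to -1.13 without single libraries. The 1 window became 0 with libraries scaled to the same median, a pseudocount of 0.005, 20 kb, no minimum distance, means of log2 values, without the highest pair, by overlap, without mHoxD_84, mHoxD_85, mHoxD_88 or mHoxD_89, with only the groups compared and with fragments scaled, and 0 to 4 without single libraries. For Ring1BGWT against Ring1B-/-, the 3′ over 5′ ratio passed without mHoxD_82 (-1.21) or mHoxD_83 (-1.13). The cluster ratio missed the threshold in 1 distance class (1.23), by overlap (1.29), with only the groups compared (1.35) and with fragments scaled (1.22), and ran from 1.10 to 1.69 without single libraries. For Ring1BG53 it missed as a mean of log2 values (1.66), in 1 class (1.46), by overlap (1.57), with only the groups compared (1.72) and scaled (1.60), running from 1.46 to 2.05 without single libraries. The 0 windows of both comparisons became 1 at 20 kb and 0 to 2 without single libraries. For Eed-/- against Ring1B-/-, the cluster ratio missed as a mean of log2 values (-1.37), in 1 class (-1.11), by overlap (-1.31), with only the groups compared (-1.43) and scaled (-1.33), running from -1.74 to -1.09 without single libraries. The 2 windows became 1 with libraries scaled to the same sum, a pseudocount of 0.1 or adjustment over all comparisons, 4 with the same median or means of log2 values, 5 with fragments scaled, 0 at 20 kb, with no minimum distance, without mHoxD_82, mHoxD_84, mHoxD_86, mHoxD_87 or mHoxD_89 and with only the groups compared, and 0 to 3 without single libraries. For P2 against A2 the cluster ratio ran from -0.24 to 0.84 without single libraries.

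Deviations of libraries with the same replicate number correlated at 0.09 at most, which gave little sign of pairing. In groups of 2 libraries the deviations mirror each other, so this check cannot exclude a shared batch. With the replicate number as a block (replicate block), which in effect leaves out Ring1B-/- replicate 3, the cluster ratio of Ring1B-/- against WT was -1.71 and past the threshold, that of Eed-/- against Ring1B-/- was -1.09 and not, and the windows called were 4 for Ring1B-/- against WT, 2 for Ring1BGWT and 2 for Ring1BG53 against Ring1B-/-, and 0 for Eed-/- against Ring1B-/-. D3 against UD had 3 windows, and the block changed no other call of a ratio between groups. With no filter on low pairs, single pairs of the window called, out of 504, were 1 (D3 and UD), 3 (Eed-/- and WT), 3 (Ring1B-/- and WT), 2 (Ring1BGWT and Ring1B-/-) and 5 (Eed-/- and Ring1B-/-). The share of all pairs called was not taken under these alternatives. Such counts therefore do not set the window apart from other pairs. A pseudocount of 0.1 gave 2 for Eed-/- against WT, and leaving out libraries gave 0 to 1 for P2 against A2. Against 0, scaling fragments turned the cluster ratio to -1.48 in D3, -1.90 in Eed-/-, -0.57 in Ring1B-/-, -0.47 in P2 and -0.76 in A2 cells, and means of log2 values turned the 3′ over 5′ ratio of WT cells to 0.68. Up to 54.0% of the window's pairs held no read in a library, and at a median SE of 1.45 (2 against 2 ES libraries) single pairs are measured with little precision.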
